A study of Mus musculus with 14 samples.

Results

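Kupffer cells are the resident macrophages of the liver. They sit inside the sinusoid against its endothelium, engulf bacteria, debris and ageing red blood cells from portal blood, and depend on signalling through the CSF1 receptor for their survival. The wall itself is made of fenestrated liver sinusoidal endothelial cells (LSECs), which are scavengers too, so the 2 cell types touch each other and share some receptors. Reads on 10 genes that mark Kupffer cells and macrophages are described here in 14 libraries of sorted LSECs. The genes are Clec4f, Vsig4, Cd163, Folr2, Timd4, Cd5l, Marco, Adgre1, Csf1r and C1qa, and they account for 10 of the 23930 targets counted. These genes were chosen by name as known markers, with earlier results of these data known.

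All mice were female wild-type C57BL/6J. Aged mice were 10 to 11 months old and young mice 8 to 10 weeks old, and no other treatment is named. Flow cytometry kept cells with dim CD45, the surface protein of leukocytes, and with high STAB2 and high CD146. The gate used none of the 10 markers. Experiment 1 held 3 aged and 3 young libraries and experiment 2 held 4 of each. Each library is named by age, experiment and replicate number: aged 1.3 was replicate 3 of the aged mice in experiment 1. Whether each library came from its own mouse is not stated by the labels. The p-values therefore measure only how far these samples spread, and part of that spread may be technical.

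Libraries were made with an amplicon panel that reads 1 short target per gene, and held 6710403 to 13977361 gene reads. Levels are in CPM, the reads of a gene per fixed number of gene reads, with TMM factors that set libraries level on the bulk of their genes. Amplicons differ in yield, so CPM values are compared between libraries and not between genes. The defining markers of LSECs were present: Stab2 lay between 1653 and 2372 CPM and Clec4g between 6490 and 12394 CPM over the 14 libraries. Targets of olfactory, vomeronasal and taste receptors took 0.147 to 3.19% of gene reads, and young 2.2 (2.93%) and aged 2.4 (2.82%) stood apart in experiment 2. Over the 9 markers with reads, r with that share ran from -0.24 to 0.33, with no adjusted p under 0.05 (family of 90). It was positive for all 9 in experiment 1 (0.29 to 0.82) and negative for all 9 in experiment 2 (-0.65 to -0.10), and it ran from -0.0101 to 0.67 without the 2 farthest libraries.

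Each of the 10 markers matched 1 target, and 7 passed the filter on low counts. Those were Clec4f, Vsig4, Cd163, Folr2, Cd5l, Adgre1 and Csf1r. Timd4, Marco and C1qa did not pass. C1qa encodes the A chain of the complement component C1q, which macrophages secrete. It had 2 reads in all and was at 0 in 12 libraries, where 0 reads allow a level of up to 0.225 to 0.408 CPM (3 reads, counting error only). Its partner C1qb, on the same panel, had 4.37 to 69.0 CPM, and C1qc had at most 17 reads in a library. C1qa is therefore left out of the comparisons, which cover 9 markers.

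The first group holds genes that mark resident Kupffer cells in mice. Clec4f encodes a C-type lectin that in mouse liver is used to identify Kupffer cells. Vsig4 encodes the complement receptor of the immunoglobulin family with which they catch bacteria coated with C3 fragments. Cd5l encodes AIM, a secreted protein that binds lipids and supports macrophage survival. Promoters from RefSeq are printed for these 3 markers, whose levels moved together over libraries, as the 250 bases before the transcript start in assembly GRCm38.p6, read 5′ to 3′ on the gene's strand. Capitals mark the hexamer GAGGAA, or TTCCTC where it lies on the other strand, the core of sites for the myeloid transcription factor PU.1.
Clec4f, chr6:83656117-83656366, minus strand: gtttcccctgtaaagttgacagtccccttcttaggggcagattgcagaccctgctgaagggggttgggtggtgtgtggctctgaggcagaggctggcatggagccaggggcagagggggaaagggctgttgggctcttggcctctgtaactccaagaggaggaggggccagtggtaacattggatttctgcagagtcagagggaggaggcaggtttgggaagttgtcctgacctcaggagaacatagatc
Vsig4, chrX:96293439-96293688, minus strand: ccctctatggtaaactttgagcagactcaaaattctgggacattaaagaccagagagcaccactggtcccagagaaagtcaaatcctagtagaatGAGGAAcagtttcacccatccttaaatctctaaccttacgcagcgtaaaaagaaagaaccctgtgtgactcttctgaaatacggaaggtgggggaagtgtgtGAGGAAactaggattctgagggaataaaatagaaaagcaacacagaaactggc
Cd5l, chr3:87357631-87357880, plus strand: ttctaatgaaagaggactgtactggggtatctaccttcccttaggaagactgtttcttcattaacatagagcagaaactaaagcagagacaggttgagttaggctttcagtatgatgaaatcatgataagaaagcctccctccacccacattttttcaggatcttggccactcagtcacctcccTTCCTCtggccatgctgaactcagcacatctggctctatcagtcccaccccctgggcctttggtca

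The Vsig4 window held the PU.1 core at 155 and 53 bases before the start, the Cd5l window held it 66 bases before, and the Clec4f window did not hold it. Promoters were given for 7 of the 10 markers, in 8 windows because Folr2 has 2 starts. GAGGAA was in 3 of the 8 windows, those of Vsig4, Cd5l and Marco, against 23.3% of 32817 RefSeq promoter windows of the same length on either strand. The AP-1 sequence TGAGTCA was in 1 of 8 windows against 4.46%, and TATAAA in 0 of 8 against 12.4%. These are matches of letters and not evidence of binding.

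Clec4f (NM_016751.3) had 21.5, 18.6 and 63.9 CPM in the aged libraries of experiment 1 and 7.24, 6.89 and 25.0 CPM in the young ones, in the order of their replicate numbers. In experiment 2 it had 17.3, 40.5, 16.0 and 5.41 CPM in aged libraries and 7.05, 1.06, 6.67 and 4.64 CPM in young ones. Aged 1.3 was the highest library and young 2.2, with 8 reads, the lowest, a 60.4-fold range, and the ages overlapped in each experiment. The aged mean was 26.2 ± 19.7 CPM and the young mean 8.36 ± 7.66 CPM (SD, n = 7 libraries per age). Aged over young, with the experiment as a term, Clec4f was 3.37-fold (95% interval 1.54 to 7.41), which is 1.75 on the log2 scale (SE 0.529, adjusted p = 0.46 by edgeR). In bulk libraries more Kupffer cells among the sorted cells and more RNA per cell cannot be told apart, and the cells that gave these reads were not identified.

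Vsig4 (NM_177789.4) had 15.3, 17.3 and 51.5 CPM in aged libraries and 5.85, 5.58 and 16.0 CPM in young ones of experiment 1. In experiment 2 it had 17.2, 40.3, 40.9 and 9.58 CPM in aged libraries and 14.3, 1.06, 4.22 and 6.78 CPM in young ones. Aged 1.3, aged 2.3 and aged 2.2 were the 3 highest libraries, and only young 1.3 in experiment 1 and young 2.1 in experiment 2 reached into the aged range. The aged mean was 27.4 ± 16.3 CPM against 7.68 ± 5.43 CPM, a 3.59-fold difference (95% interval 1.62 to 7.96, log2 fold change 1.85, SE 0.534, adjusted p = 0.46). Cd5l (NM_009690.2) had 22.9, 16.3 and 42.6 CPM in aged libraries and 7.54, 5.49 and 22.7 CPM in young ones of experiment 1. In experiment 2 it had 14.8, 27.4, 17.3 and 3.33 CPM in aged libraries and 7.65, 1.06, 3.54 and 9.88 CPM in young ones. The ages overlapped in each experiment for Cd5l, with aged 2.4 under 3 of the 4 young libraries. Its fold change was 2.58 (log2 1.37, SE 0.526, adjusted p = 0.648).

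**Figure D1:**
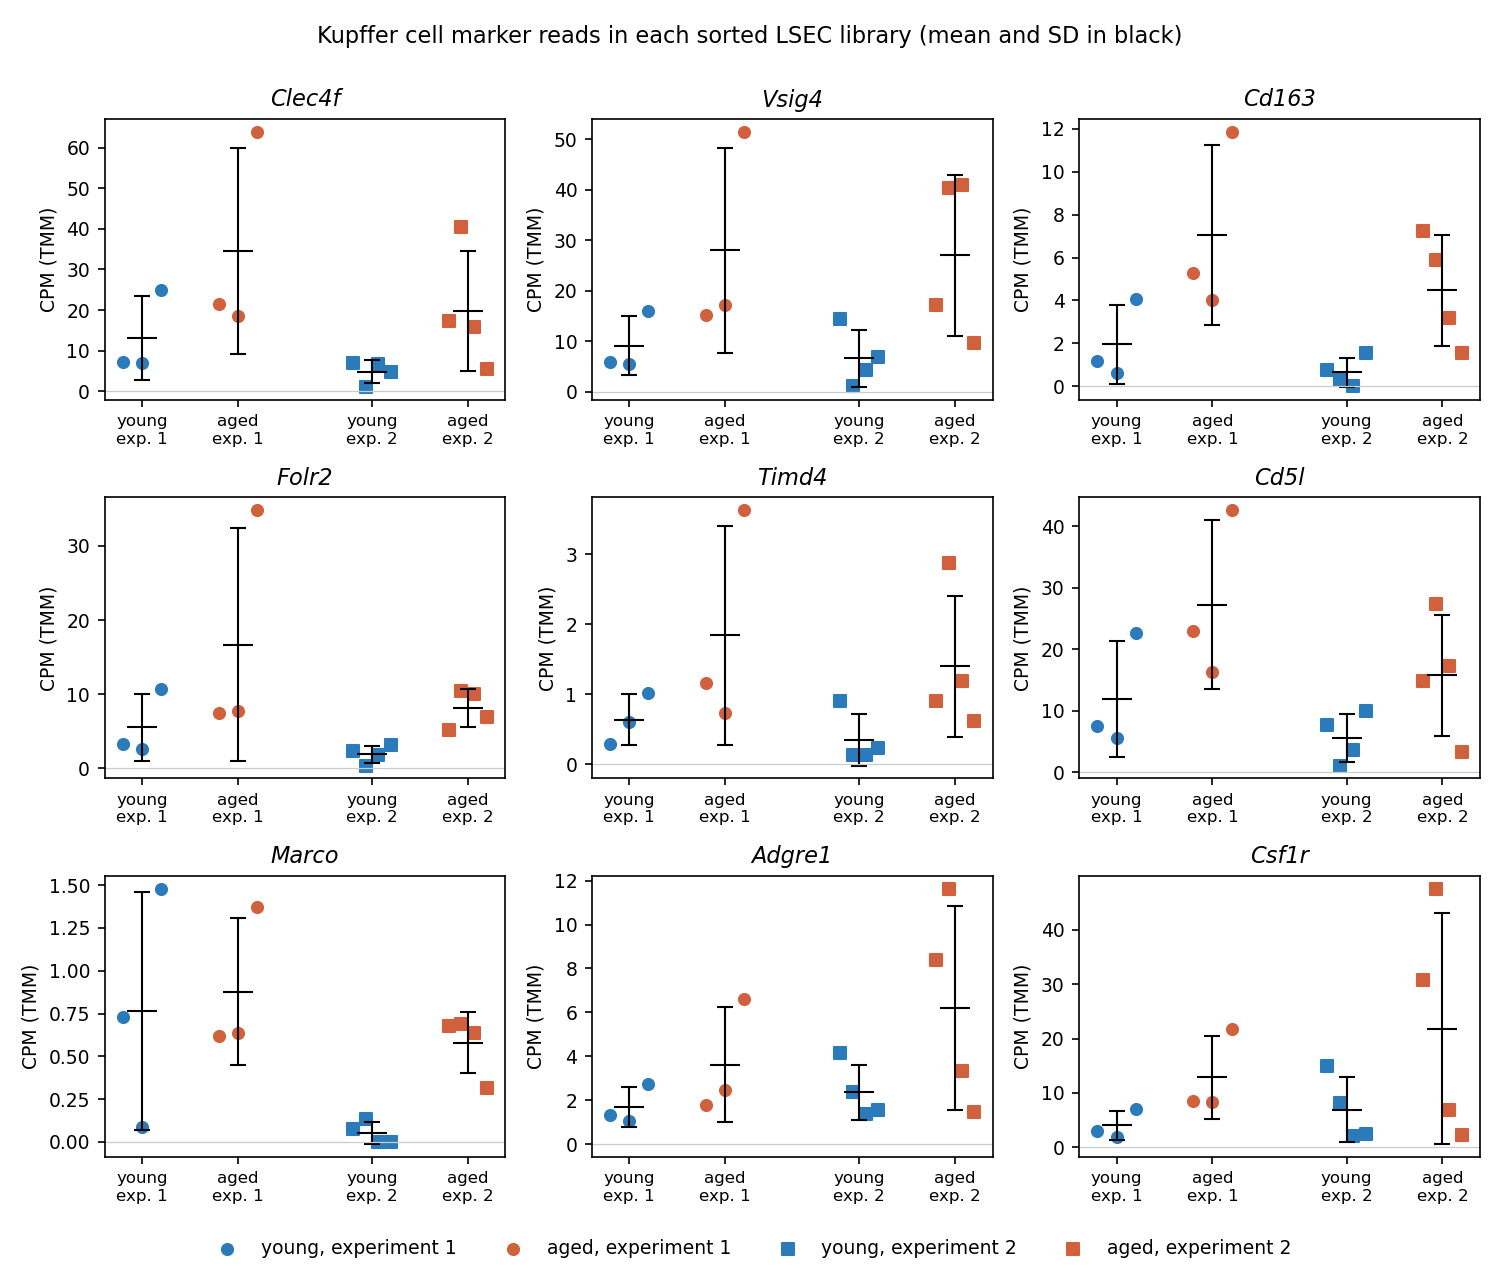
Level of each marker in CPM after TMM scaling, on a linear axis that differs between panels, for each of the 14 libraries by age and experiment; black lines are the mean and SD. Aged 1.3 is the highest point for 6 of the 9 markers, and young 2.2 is the lowest for 5.

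The next markers are receptors of tissue-resident macrophages. Cd163 encodes the scavenger receptor for haptoglobin bound to haemoglobin, through which macrophages take up iron from red cells. Cd163 (NM_001170395.1) had 5.27, 4.02 and 11.9 CPM in aged libraries and 1.17, 0.61 and 4.05 CPM in young ones of experiment 1. In experiment 2 it had 7.25, 5.87, 3.17 and 1.56 CPM in aged libraries and 0.75, 0.265, 0 and 1.55 CPM in young ones. The 2 ages did not overlap in experiment 2, but aged 2.4 and young 2.4 stood almost level, and 0 reads in young 2.3 allow up to 0.408 CPM. The mean was 5.57 ± 3.34 CPM in aged libraries and 1.20 ± 1.36 CPM in young ones (SD, n = 7 libraries per age). At 5.05-fold (95% interval 1.94 to 13.1, log2 2.34, SE 0.642, adjusted p = 0.408) its fold change had the highest estimate of the 7 markers tested.

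Folr2 encodes a folate receptor that marks resident macrophages in several organs. Folr2 (NM_001303231.1) had 7.51, 7.76 and 34.8 CPM in aged libraries and 3.29, 2.61 and 10.7 CPM in young ones of experiment 1. In experiment 2 it had 5.21, 10.5, 10.0 and 6.87 CPM in aged libraries and 2.33, 0.397, 1.77 and 3.09 CPM in young ones. All 4 aged libraries of experiment 2 were above all 4 young ones, while in experiment 1 young 1.3 was above aged 1.1 and aged 1.2. The fold change was 3.65 (95% interval 1.74 to 7.67, log2 1.87, SE 0.499, adjusted p = 0.37), the smallest adjusted p among the markers.

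Timd4 encodes TIM-4, a receptor for phosphatidylserine on dying cells that is typical of long-lived resident macrophages. It had 0.625, 1.16 and 3.63 CPM (lowest, median, highest) in aged libraries and 0.132, 0.293 and 1.01 CPM in young ones, from 1 to 45 reads per library. Marco encodes a scavenger receptor for bacteria and particles. It had 0.312, 0.639 and 1.37 CPM in aged libraries and 0, 0.0872 and 1.48 CPM in young ones, with at most 19 reads. Its highest library was young 1.3, and the ages did not overlap in experiment 2, where no young library had more than 1 read. A fit without the filter, over 22625 targets, gave log2 fold changes of 1.66 for Timd4 (SE 0.581, adjusted p = 0.629) and 1.44 for Marco (SE 0.724, adjusted p = 0.785).

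The last group holds genes shared with other myeloid cells. Adgre1 encodes F4/80, the classical surface marker of mouse macrophages, and Csf1r encodes the receptor for CSF1 and IL-34, present on monocytes and macrophages in general. Adgre1 (NM_010130.4) had 1.46, 3.33 and 11.6 CPM (lowest, median, highest) in aged and 1.05, 1.55 and 4.13 CPM in young libraries. Csf1r (NM_001037859.2) had 8.52, 8.31 and 21.7 CPM in aged libraries and 3.07, 1.92 and 7.08 CPM in young ones of experiment 1. In experiment 2 Csf1r had 30.7, 47.6, 6.82 and 2.19 CPM in aged libraries and 14.9, 8.2, 2.04 and 2.50 CPM in young ones. Each of these genes was highest in aged 2.2, and their lowest library was young 1.2 and not young 2.2, where Clec4f, Vsig4, Folr2, Timd4 and Cd5l had their lowest level. For Csf1r the ages did not overlap in experiment 1 and overlapped widely in experiment 2. The fold change was 2.39 for Adgre1 (95% interval 1.16 to 4.89, adjusted p = 0.648) and 3.16 for Csf1r (95% interval 1.22 to 8.2, adjusted p = 0.651).

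Across both experiments 0 of the 7 tested markers passed an adjusted p of 0.05 by edgeR's quasi-likelihood test, against 0.162% of all 14168 targets. All 7 had a higher aged level, against 49.6% of all targets, and all 7 had one with an unadjusted p under 0.05, against 3.43%. Their median log2 fold change was 1.75 (1.25 to 2.34), and the median of all tested targets was -0.00227. Since members were counted only where they passed the filter, these counts say nothing of Timd4, Marco and C1qa. Cd163, with a median of 0.75 CPM in young libraries against 5.27 CPM in aged ones, may have passed the filter only through its aged levels. Its part in these counts is therefore no support for an age difference. DESeq2's Wald test called 3 of the 7, Vsig4 (adjusted p = 0.0414), Cd163 (0.0245) and Folr2 (0.0229), and called 146 of all targets where edgeR called 23. For Clec4f, Vsig4, Cd163 and Folr2 each of the 7 aged libraries had a log2 level over that of the mean young library of its experiment, against 2.36% of all tested targets. The same held for Timd4 and Marco, which were not among the tested targets. For Cd5l, Adgre1 and Csf1r it held in 6 of 7 aged libraries.

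An exact permutation test of the difference in mean log2 CPM, with age labels permuted within experiments, was made for each of 9 markers. The exact permutation p was 0.00286 for Cd163, 0.00429 for Folr2, 0.00714 for Vsig4, 0.0129 for Timd4, 0.0157 for Clec4f, 0.0214 for Marco and 0.0343 for Cd5l. The exact permutation p was 0.0671 for Adgre1 and 0.07 for Csf1r. These two-sided p-values are not adjusted, and the smallest that the design allows is 0.00143. The 7 markers with a p under 0.05 are those of the first 2 groups, and Adgre1 and Csf1r, which other myeloid cells share, gave the 2 largest p-values. A difference between these groups of markers was not tested. By edgeR's test the unadjusted p was 0.0211 for Cd5l, 0.0212 for Adgre1 and 0.0217 for Csf1r, so that fit did not set them apart.

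**Figure D2:**
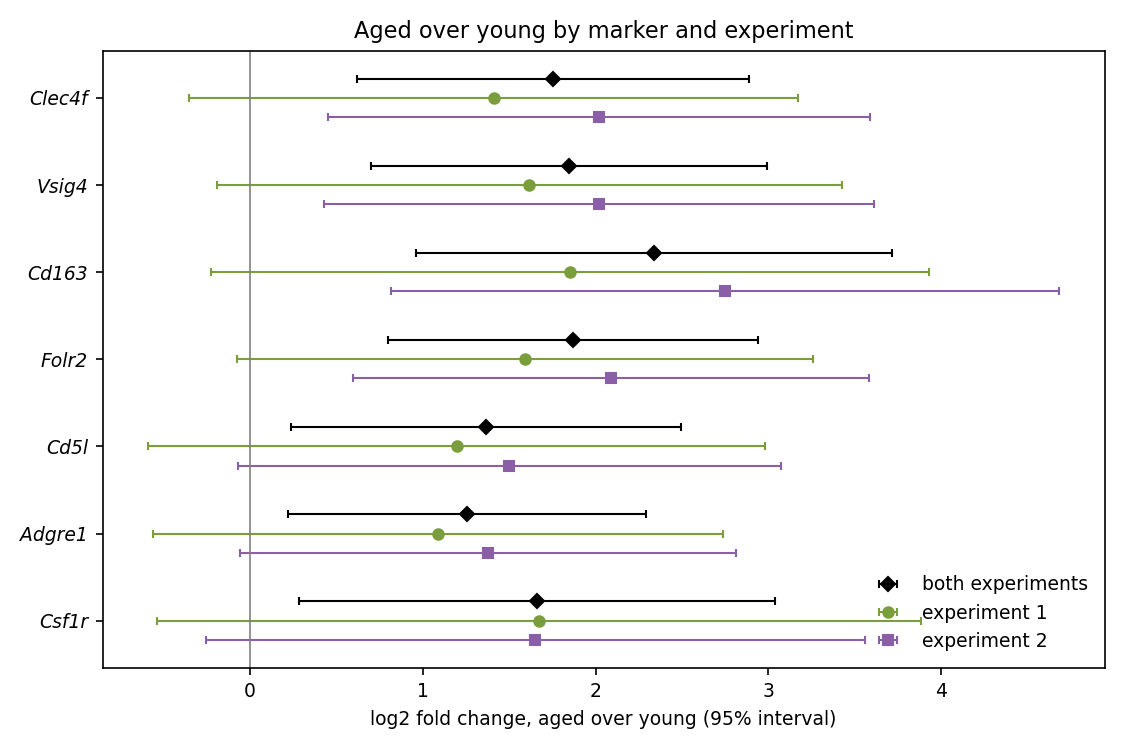
Log2 fold change, aged over young, of the 7 tested markers with 95% intervals from the quasi-likelihood fit, for both experiments together (black diamonds), experiment 1 (green circles) and experiment 2 (purple squares). All 21 estimates lie above 0, and the 7 intervals of experiment 1 include 0.

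Each experiment taken alone gave higher aged levels for all 7 markers, against 54.3% of all targets in experiment 1 and 49.6% in experiment 2. In experiment 1 log2 fold changes ran from 1.09 for Adgre1 to 1.85 for Cd163, and 0 of 7 passed, against 0% of all targets. None of the 7 had an unadjusted p under 0.05 there, against 2.57% of all targets that were higher with such a p. In experiment 2 they ran from 1.38 for Adgre1 to 2.75 for Cd163, and 0 of 7 passed, against 0.00706% of all targets. There Clec4f, Vsig4, Cd163 and Folr2 had an unadjusted p under 0.05, against 1.69% of all targets. Among the 7 tested markers every aged library was above every young one for 1 in experiment 1 (Csf1r), against 6.87% of all tested targets. In experiment 2 this held for Folr2 and Cd163, against 0.903% of all tested targets. Since Cd163 may have passed the filter only through its aged levels, its part in this is no support for an age difference. In experiment 2 it also held for Marco, which was not among the tested targets. The age difference was not shown to differ between experiments for any tested marker (0 of 7, against 0% of all targets): the difference of log2 fold changes was 0.61 for Clec4f (SE 1.06) and -0.02 for Csf1r (SE 1.24).

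Between experiments the markers stood on either side of 0. Experiment 2 minus experiment 1, with age as a term, was negative on the log2 scale for Folr2 (-1.28, SE 0.486), Clec4f (-1.11, SE 0.517), Cd163 (-1.08, SE 0.618), Cd5l (-0.95, SE 0.518) and Vsig4 (-0.25, SE 0.522). It was positive for Adgre1 (0.63, SE 0.488) and Csf1r (0.77, SE 0.644). Of the 7 none passed, with adjusted p-values from 0.106 for Folr2 to 0.733 for Vsig4, against 7.79% of all targets called. Ratios of markers within a library do not depend on how libraries are scaled. Csf1r reads per Clec4f read were 0.278 to 0.538 in 10 libraries. They were 1.17 in aged 2.2, 1.77 in aged 2.1, 2.11 in young 2.1 and 7.75 in young 2.2, all of experiment 2. The ratio in young 2.2 rests on 62 Csf1r reads and 8 Clec4f reads. Vsig4 reads per Clec4f read were 2.56 in aged 2.3, 2.03 in young 2.1, 1.77 in aged 2.4 and 1.46 in young 2.4, and 0.633 to 1 in the other 10 libraries.

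**Figure D3:**
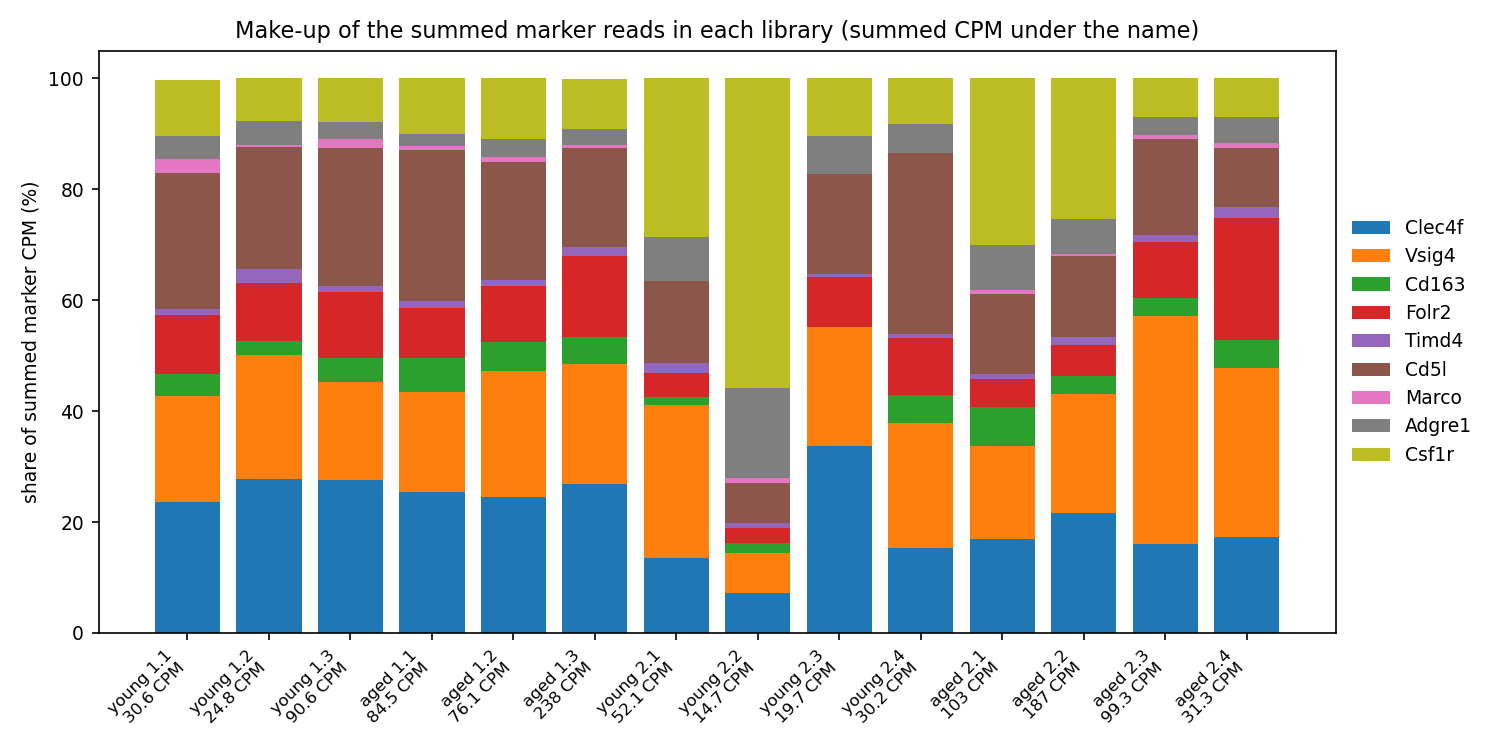
Share (%) of each marker in the summed CPM of all 10 markers in each library, with the summed CPM under the library's name; C1qa is too small to draw. Csf1r takes 55.9% in young 2.2, where the sum is 14.7 CPM, and 25.4 to 29.9% in young 2.1, aged 2.1 and aged 2.2; in experiment 1 its share is 7.72 to 10.9%.

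In experiment 1 the sum varied from 24.8 CPM in young 1.2 to 238.1 CPM in aged 1.3. Over those 6 libraries Clec4f held 23.7 to 27.7% of the sum, Vsig4 17.6 to 22.7% and Cd5l 17.9 to 27.1%. Folr2 held 8.89 to 14.6% and Csf1r 7.72 to 10.9%. The compared markers with the fewest reads varied more relative to their share. Cd163 held 2.46 to 6.23%, Adgre1 2.11 to 4.31%, Timd4 0.957 to 2.46% and Marco 0.351 to 2.39%. In experiment 2 Clec4f held 7.21 to 33.8% and Vsig4 7.21 to 41.2%. The summed level was 31.3, 99.3 and 238.1 CPM (lowest, median, highest) in aged and 14.7, 30.2 and 90.6 CPM in young libraries.

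The markers followed one another across the 14 libraries. All 36 pairs of the 9 markers had a positive Pearson's r of log2 CPM, with a median of 0.755 (0.398 to 0.956). In a family of 90 correlations, 27 of the 36 had a Benjamini-Hochberg adjusted permutation p under 0.05 by Pearson's r and 30 by Spearman's rho. The permutations ran over all 14 libraries without regard to age or experiment. Differences between ages or experiments that markers shared therefore count toward these p-values. Among the Kupffer cell genes Clec4f and Cd5l gave the highest r, 0.945 (permutation p = 1e-05, the smallest these permutations can give, adjusted p = 0.000225), with a rho of 0.912 (p = 1e-05, adjusted p = 0.00045). Without aged 1.3 and young 2.2, the libraries farthest from the Clec4f median, r was 0.88, and it was 0.98 within experiment 1 and 0.916 within experiment 2. The median r of the 36 pairs was 0.939 within experiment 1 and 0.748 within experiment 2. As deviations from the 4 age by experiment means, which removes age and experiment, the 36 pairs had a median r of 0.637 (0.192 to 0.963). The r of these deviations were not tested.

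Adgre1 and Csf1r gave the highest r of all pairs, 0.956 (permutation p = 1e-05, adjusted p = 0.000225), with a rho of 0.89 (p = 3e-05, adjusted p = 0.0009). Their r was 0.934 in experiment 1, 0.981 in experiment 2 and 0.915 once aged 2.1 and aged 2.2 were left out. The 15 pairs among Clec4f, Vsig4, Cd163, Folr2, Timd4 and Cd5l had a median r of 0.878 (0.814 to 0.945), and all 15 had an adjusted p under 0.05. The 12 pairs between these 6 genes and Adgre1 or Csf1r had a median r of 0.59 (0.398 to 0.722), and 5 of 12 had an adjusted p under 0.05 by Pearson's r and 9 of 12 by Spearman's rho. The lowest was Folr2 with Csf1r at 0.398 (permutation p = 0.161, adjusted p = 0.269), with a rho of 0.437 (p = 0.122, adjusted p = 0.238). This division was drawn after the values were seen, so it is a description with no test of the difference. It was seen in experiment 2, where the 12 pairs had a median r of 0.621 and the 15 pairs 0.821, and not in experiment 1, where the medians were 0.965 and 0.955. Without the 2 farthest libraries of each pair the medians were 0.71 and 0.781. Marco, with few reads, had a median r of 0.696 with the other 8.

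**Figure D4:**
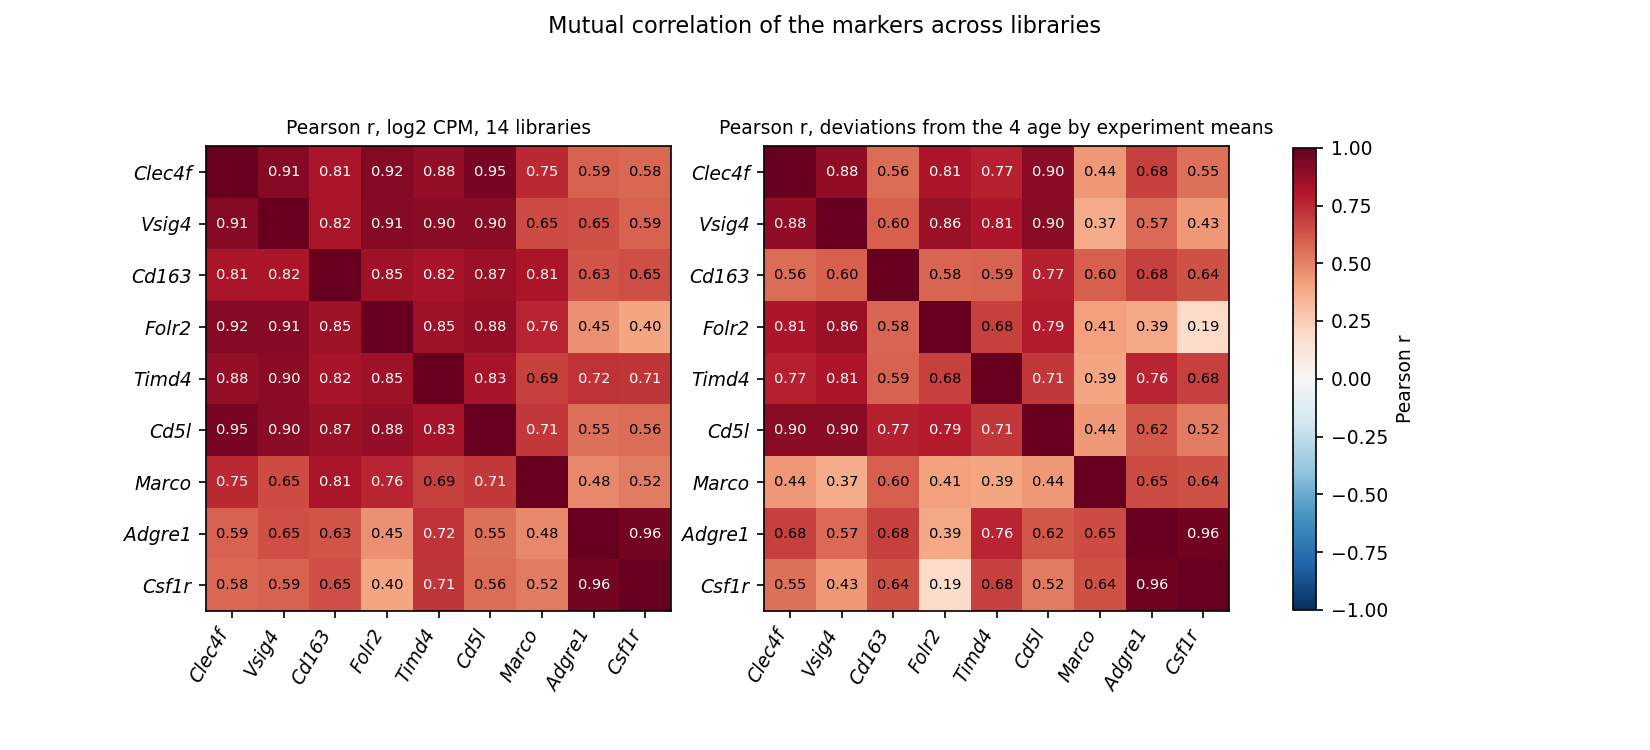
Pearson's r for each pair of the 9 markers with reads, from log2 CPM over 14 libraries (left) and from deviations from the 4 age by experiment means (right); colour runs from -1 (blue) to 1 (red). The block of Clec4f, Vsig4, Cd163, Folr2, Timd4 and Cd5l is at 0.81 or more on the left, and Folr2 with Csf1r is the palest pair on each side.

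**Figure D5:**
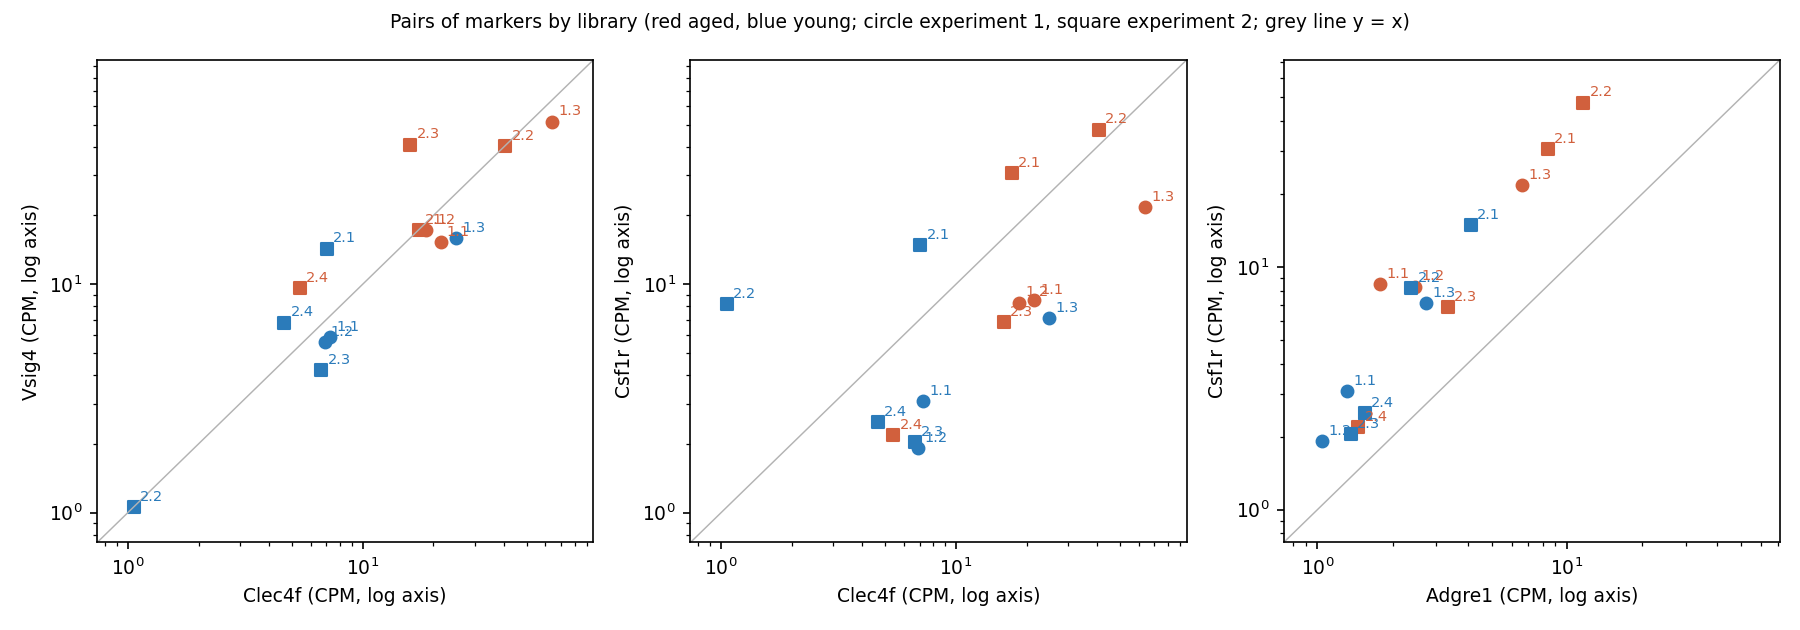
CPM of 3 pairs of markers in each library on log axes, aged in red and young in blue, circles for experiment 1 and squares for experiment 2, with replicate names. Young 2.1, young 2.2, aged 2.1 and aged 2.2 lie above the line of equal values for Csf1r against Clec4f, and the other 10 libraries lie below it.

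Markers of other leukocytes varied over the same libraries. The summed CPM of 9 measured B and plasma cell genes was 22.9, 41.5 and 401.4 (lowest, median, highest) in aged and 14.2, 28.6 and 91.9 in young libraries. It was 401.4 in aged 1.3, 316.3 in aged 2.2, 233.5 in aged 2.1 and 91.9 in young 2.1, and 14.2 to 41.5 in the other 10. The B cell genes were not at 0: of the 7 tested all were higher in aged libraries and 5 had an unadjusted p under 0.05, with a median log2 fold change of 3.07, and 0 passed. The 3 aged libraries with the highest B cell sums are those in which Csf1r was highest. Adgre1 followed the B cell sum with an r of 0.874 (permutation p = 0.00022, adjusted p = 0.00124), with a rho of 0.596 (p = 0.0273, adjusted p = 0.0664). Csf1r followed it with an r of 0.852 (permutation p = 6e-05, adjusted p = 0.00054), with a rho of 0.727 (p = 0.0043, adjusted p = 0.0176). Without aged 1.3 and aged 2.2 these r were 0.784 and 0.778, and within each experiment they were 0.814 to 0.891. For the 6 Kupffer cell genes r with the B cell sum was 0.424 to 0.684, and -0.0404 to 0.27 without those 2 libraries. Of the 6, Timd4 alone had an adjusted p under 0.05 (r 0.684, permutation p = 0.00751, adjusted p = 0.0233), with a rho of 0.415 (p = 0.141, adjusted p = 0.259). Within experiments the 6 had an r of 0.744 to 0.859 in experiment 1 and 0.297 to 0.686 in experiment 2.

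With the B cell sum as a further term, the median log2 fold change of the 7 markers was 1.03, against 1.75 without it, and 3 of 7 (Vsig4, Cd163 and Folr2) had an unadjusted p under 0.05. Adgre1 was then at 0.30 (SE 0.361) and Csf1r at 0.40 (SE 0.458), while Cd163 was at 1.75 (SE 0.722) and Vsig4 at 1.52 (SE 0.568). Without aged 1.3, aged 2.1, aged 2.2 and young 2.1, a fit chosen after the data were seen with 4 aged and 6 young libraries, the median was 0.99. There Vsig4, at 1.77 (SE 0.64), was the 1 marker with an unadjusted p under 0.05, and Csf1r was at 0.54 (SE 0.575). All 7 stayed above 0 in each of these fits. Whether B cells or other leukocytes among the sorted cells account for part of the age difference was not tested beyond these values.

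The 7 pan-leukocyte genes, which include Ptprc, the gene for CD45, summed to 183.1, 531.2 and 1351 CPM (lowest, median, highest) in aged and 143.3, 220.2 and 595.4 CPM in young libraries. Of these 7 genes 6 had an unadjusted p under 0.05 with higher aged levels, the median log2 fold change was 1.98, and 0 passed. Adgre1 had an r of 0.863 with this sum (permutation p = 0.00016, adjusted p = 0.00103), with a rho of 0.789 (p = 0.00141, adjusted p = 0.00668), and Csf1r one of 0.775 (permutation p = 0.00159, adjusted p = 0.0065), with a rho of 0.666 (p = 0.0112, adjusted p = 0.0372). Without aged 1.3 and aged 2.2 these r were 0.784 and 0.645, and they were 0.79 to 0.972 within experiments. For the 6 Kupffer cell genes r was 0.278 to 0.581, with no adjusted p under 0.05, and -0.191 to 0.15 without those 2 libraries. Within experiments the 6 had an r of 0.716 to 0.889 in experiment 1 and 0.339 to 0.787 in experiment 2. Neutrophil genes summed to 1551 CPM in aged 2.3 and to 8.88 to 692.4 CPM in the others. Of the 4 neutrophil genes tested, S100a8, S100a9 and Csf3r had an unadjusted p under 0.05, with a median log2 fold change of 2.04 over the 4. Hepatocyte genes summed to 7459 CPM in aged 1.3 and 411 to 2171 CPM elsewhere. T and NK cell genes summed to 506.8 CPM in aged 1.3, 182 CPM in young 2.2 and at most 90.8 CPM elsewhere. Csf1r had an r of 0.69 with that sum (permutation p = 0.00631, adjusted p = 0.021), with a rho of 0.736 (p = 0.00391, adjusted p = 0.0168), and an r of 0.753 without aged 1.3 and young 2.2. Markers of monocytes and recruited macrophages had a median log2 fold change of 1.02 over 6 tested genes, 5 of them higher, and Plac8 was the 1 with an unadjusted p under 0.05 (log2 1.65, SE 0.737, adjusted p = 0.719). The part of these cells in the marker levels was not tested.

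The LSEC genes themselves were mostly below 0. Of 11 tested, 1 was higher in aged libraries, Fcgr2b (log2 0.58, SE 0.211, adjusted p = 0.629), and the median log2 fold change was -0.15. Lyve1 was at -0.68 (SE 0.271, adjusted p = 0.671), and 0 passed. Over dendritic cell genes the median was 0.06 (6 tested, 2 with an unadjusted p under 0.05: Clec9a and Ly6d). The medians were 0.65 for T and NK cell genes (7 tested), 0.74 for hepatocyte genes (8), 0.11 for stellate cell genes (7), 1.16 for cholangiocyte genes (3) and 0.32 for platelet and red cell genes (4), with 0 called in each list.

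Of 30 further genes of Kupffer cells and macrophages, 27 were tested, 23 were higher in aged libraries and 13 had an unadjusted p under 0.05 in that direction, against 3.43% of all targets. Of the 27, 0 passed, and the median log2 fold change was 0.65. Fcgr3, an Fc receptor for immunoglobulin G, had a mean of 21.5 ± 18.4 CPM in aged libraries against 6.09 ± 4.25 CPM in young (log2 1.94, SE 0.603, adjusted p = 0.493). C6, a terminal complement component expressed by mouse Kupffer cells, averaged 7.85 ± 6.70 and 2.37 ± 2.02 CPM (log2 1.75, SE 0.552, adjusted p = 0.509). Cd14, the co-receptor for bacterial lipopolysaccharide, averaged 22.9 ± 2.47 and 15.0 ± 4.51 CPM (log2 0.60, SE 0.204, adjusted p = 0.556). Fabp7, a fatty acid binding protein, was at log2 1.62 (SE 0.648, adjusted p = 0.671). Spi1, which encodes PU.1, was at log2 1.82 (SE 0.741) and ran from 1.83 to 87.0 CPM, with its highest level in aged 2.2, as for Csf1r. Genes that LSECs also express were near 0: Mertk, a receptor for dying cells, was at log2 0.06 (SE 0.173), and Hpgd at 0.03 (SE 0.287). C1qb, another chain of C1q, was at 0.31 (SE 0.498), from 29.8 ± 23.5 CPM in aged libraries and 24.3 ± 8.76 CPM in young ones.

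Signals of the sinusoid that act on Kupffer cells had fold changes on either side of 0. Of 13 tested genes 6 were higher in aged libraries, the median log2 fold change was -0.03, and 0 passed. Csf1, the ligand of the CSF1 receptor, was at -0.14 (SE 0.284), and Il34, its other ligand, at 0.18 (SE 0.484). Dll4, the Notch ligand of the sinusoid, was at -0.09 (SE 0.193), and Tgfb1 at -0.03 (SE 0.186). Ccl2, a chemokine that draws monocytes, was at -1.15 (SE 0.542, adjusted p = 0.739), and Cxcl12 at 0.73 (SE 0.51). Bmp6, the iron-sensing signal of LSECs named in the series title, was the 1 gene of the list with an unadjusted p under 0.05 (log2 0.67, SE 0.186, adjusted p = 0.408).

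The targets most like the markers were sought by the mean r of their deviations from the 4 age by experiment means with those of the 7 tested markers. Among 11741 candidates with a mean of at least 5 CPM this mean r had a median of 0.0388 and a 95th percentile of 0.5. The 10 highest were Wfdc17 (0.754), Nubp1 (0.753), Uimc1 (0.736), Slirp (0.736), Oas1b (0.727), Ctsc (0.724), Arid5a (0.717), Ddb2 (0.708), Trmt6 (0.697) and Cd37 (0.695). Ctsc, which encodes the lysosomal protease cathepsin C, had 14.4 against 4.25 CPM in mean (log2 1.76, SE 0.502, adjusted p = 0.46). Wfdc17, a small secreted protein made by macrophages, had 56.0 against 18.2 CPM (log2 1.62, SE 0.489, adjusted p = 0.46). The other 8 had log2 fold changes from -0.36 (Slirp) to 0.81 (Cd37, a tetraspanin of leukocytes). They are listed for likeness over 14 libraries alone, with no test.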

How the data were processed

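The authors deposited raw read counts per RefSeq transcript target, 1 file per library, from the Ion AmpliSeq mouse transcriptome kit, per the labels' protocols. The submitters' processing notes name HTSeq 0.6.0 and DESeq2 1.18.1; which aligner, build and strand setting were used is not stated by any label, so overlapping genes cannot be separated. The 5 bookkeeping entries (1.24 to 3.04% of reads) entered neither library sizes nor tests. Targets were named from RefSeq tables of GRCm38.p6 (18128 with their version, 4324 without it) and GENCODE tables (110), and 1368 kept their identifiers. Promoter coordinates are those of the RefSeq table.

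Counts were fitted in R 4.3.3 with edgeR 4.0.16: filterByExpr (14168 targets), trimmed mean of M values (TMM) scaling, the quasi-likelihood F test with experiment and age as terms, and a model of 4 means for each experiment and their difference. Adjusted p-values are Benjamini-Hochberg over all tested targets, called under 0.05. Single markers were tested by exact permutation of log2 CPM (prior count 2) within experiments. Correlations were tested by 100000 permutations over all libraries, not within ages or experiments (SciPy 1.17.1), adjusted over 90. Alternatives used DESeq2 1.42.0 and limma-voom (limma 3.58.1), other scalings and left-out libraries. The age fit over both experiments was also run on simulated counts. These had the same dispersion for all targets and no experiment effect, so they do not show how the fit performs for these markers. Depth of 6710403 to 13977361 gene reads sets the precision: without molecular identifiers, limits from reads cover counting error only. Aged 1.1 and aged 1.2 were the most alike pair within a group (chi-square per degree of freedom 6.37, against 18.2 or more for the other pairs). This is beyond counting noise, but it cannot tell whether both came from the same mouse. Each was counted as a library, and summing both gave 4 called targets over both experiments, against 23.

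The markers and gene lists were chosen with earlier results of these data known. Named are all 10 markers, the 10 targets most like them (mean level 5 CPM or more), and up to 4 genes with the smallest p from each other list, plus genes picked for their role after their values were seen. One gene and a promoter motif are not reported here.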

Additional observations from a re-analysis of the deposited data

Results flagged for a closer look

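Within a group of 7 libraries of an age, or of 4 libraries of an age in experiment 2, the highest or lowest library was compared with its neighbour: a gap above Dixon's 95% critical value marks a library far from the others. Over 36 groups tested for 9 markers, 8 were marked. Chance alone marks about 1 in 20 where values are normally distributed and groups are separate. Here the values were CPM without a log, the groups of 4 lie within those of 7, and the markers followed one another. The 8 therefore cannot be set against that rate. Young 1.3 was the highest young library for Clec4f (25.0 CPM), Cd5l (22.7 CPM), Folr2 (10.7 CPM) and Cd163 (4.05 CPM). In that library the summed B cell (25.5 CPM), T and NK cell (13 CPM) and hepatocyte (411 CPM) markers were within the range of the other young libraries of experiment 1 or below it. Aged 1.3 was the highest aged library for Folr2 (34.8 CPM) and Marco (1.37 CPM), and it also held the highest B cell, T and NK cell, pan-leukocyte and hepatocyte sums. Timd4 in young 2.1 (0.9 CPM) was above the other 3 young libraries of experiment 2. Marco in aged 2.4 (0.312 CPM, 3 reads) was below the other 3 aged libraries of experiment 2.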

How the results depend on the processing

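All 7 tested markers kept a higher aged level over both experiments in all 26 alternatives. Of the 7, 7 had an unadjusted p under 0.05 in most of these. The exceptions were limma-voom (5), the B cell term (3), the fit without the 4 libraries with the highest B cell sums (1), and the fits without aged 1.3 or without aged 2.2 (4 each, with median log2 fold changes of 1.49 and 1.41). DESeq2 called Vsig4 at 1.83, Cd163 at 2.34 and Folr2 at 1.86 on the log2 scale, and Folr2 between experiments at -1.37 (adjusted p = 0.0449). Targets called over both experiments, 23 as reported, were 46 without TMM, 146 by DESeq2, 4 with aged 1.1 and aged 1.2 summed, 36 without young 2.2 and aged 2.4, 59 with a term for receptor reads, 12 with no experiment term, 3 with the B cell term, 4 without the 4 libraries with the highest B cell sums, and 4 to 29 with 1 library left out. In experiment 1, 0 as reported, they were 1 without TMM, 86 by DESeq2, 1 by limma-voom, 2 without young 2.2 and aged 2.4 and 2 with the receptor term. In experiment 2, 1 as reported, they were 5 without TMM, 3 with DESeq2 size factors, 53 by DESeq2, 3 by limma-voom, 3 without young 2.2 and aged 2.4, 21 with the receptor term, 0 with experiment 2 fitted alone, and 1 to 3 with 1 library left out. Between experiments, 1103 as reported, they were 615 without TMM, 671 with DESeq2 size factors, 2006 by DESeq2, 4649 by limma-voom, 367 without the filter, 325 with aged 1.1 and aged 1.2 summed, 7738 without young 2.2 and aged 2.4, 192 with the receptor term and 167 to 5057 with 1 library left out. The difference of age effects changed sign for Csf1r without young 2.2 and aged 2.4 (0.43) and with the receptor term (0.40), and for Cd5l with the receptor term (-0.041). With 1 library left out it ran from -0.74 to 0.59 for Csf1r, -0.56 to 0.78 for Cd5l, -0.27 to 1.40 for Clec4f, -0.27 to 1.19 for Vsig4, -0.21 to 1.70 for Cd163, -0.40 to 1.62 for Folr2 and -0.23 to 1.06 for Adgre1. Vsig4 between experiments was 0.0658 without young 2.2 and aged 2.4, and -0.78 to 0.0606 with 1 library left out. The exact permutation test called the same 7 of 9 markers with a prior count of 0.5 and without TMM. The median r of 0.755 was 0.939 within experiment 1. The cause of these differences was not tested.

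The replicate number of the labels as a block gave 5 called targets over both experiments and 0 in experiment 2, with 0 of 7 markers called and a median log2 fold change of 1.61. Same-numbered aged and young libraries had correlated deviations above 0.1 in 4 of 7 pairs. Of the 7 aged libraries, 3 were closest to the young library of their own number. With so few libraries per group, these values cannot show whether the numbers pair the libraries. The block gave a lower SE for Csf1r (0.331 against 0.642) and Adgre1 (0.327 against 0.483). It gave a higher SE for Vsig4 (0.563 against 0.534) and Cd5l (0.602 against 0.526). In the fit with the block Csf1r had the smallest unadjusted p of the 7 markers (0.00128) and Cd5l the largest (0.0385), with Adgre1 at 0.00879. The exact permutation test had Adgre1 and Csf1r as the markers with the largest p, so that order depends on the test. Reads limit Timd4 (at most 45 in a library) and Marco (at most 19) most, and C1qa could not be assessed.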
